A study of Homo sapiens with 12 samples.

Results

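Core circRNAs are the circular RNAs that every library of the study held. Their ids were those with at least 1 back-splice read in each of the 12 libraries, and 535 of the 44042 ids met this rule. They were thus chosen by the same read counts that are given below, so abundance, detection and the share of reads taken by the core describe the choice and carry no test. Exon number, intron length and host genes were not used to choose members.

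A circRNA forms when the spliceosome joins an exon's end back to its own start, or to that of an exon further upstream in the same transcript. This back-splicing closes a ring without free ends, which resists exonucleases and is therefore usually long-lived. Long introns beside the circularised exons, pairing between repeats in those introns and RNA-binding proteins that bridge them are known to favour the reaction. RBFOX1 and its paralog RBFOX2 are splicing factors that bind introns near alternative exons, and a few RNA-binding proteins of this kind are known to change back-splicing.

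All libraries came from the human embryonic kidney line HEK293, with 3 libraries in each of 4 groups. In experiment 1, the induced cells were the line HEK293_Flp In/TO ΔFox2_Flag_mFox1 after doxycycline, and the uninduced cells were the same line left untreated. Experiment 2 set induced cells of that line, on doxycycline, against parental HEK293 cells, also on doxycycline. Per the labels, the line descends from a single clone deficient in Rbfox2 and carries an HA-Flag-tagged Rbfox1 behind an inducible promoter, and it was harvested 2 weeks after induction with 0.5 µg/ml. The dose and time of the parental cells are not stated apart from this. The contrast of experiment 2 therefore joins RBFOX1 induction with every other difference between a clone and its parent line. Nothing in the labels says that replicates were separate cultures, so the spread behind each p-value is that among these libraries and could be technical.

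Gene counts were set beside the labels first. RBFOX1 stood at 39.2 ± 0.394 CPM (counts per 1000000, scaled by effective library size; SD, n = 3) in induced cells against 3.77 ± 0.584 CPM in uninduced cells of experiment 1, and at 40.2 ± 0.704 CPM in induced cells against no read in any of the 3 parental libraries of experiment 2. The sizes for genes were taken within each experiment, so gene levels of different experiments are not on the same scale. RBFOX2, which the labels call deficient, still had 53.7 ± 2.78 CPM in induced and 53.7 ± 3.897 CPM in uninduced cells of experiment 1. In experiment 2 it had 50.8 ± 4.76 CPM in induced cells against 183 ± 0.0715 CPM in parental cells. The HEK293 markers VIM, KRT18 and KRT8 were present everywhere, at 736.5 to 972.3, 38.3 to 117.7 and 30.6 to 92.1 CPM. NEFM, a neurofilament gene that HEK293 cells are known to express, reached 34.6 to 38.7 CPM in parental cells and only 0.111 to 0.633 CPM in the inducible line. Markers of other cells were near 0, with PTPRC at most 0.0532, ALB at most 0.132 and COL1A1 between 1.86 and 5.52 CPM. Gene totals lay between 34025315 and 55298749 counts per library, and back-splice reads between 10004 and 22661 in experiment 1 and between 18945 and 28691 in experiment 2. Uninduced library 3 was the shallowest on both counts.

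The core was a small set of ids with a large share of the signal. It held 1.215% of ids and 30.42% of all back-splice reads, 74316 in number. Ids read in a single library made up 59.98% of all ids and 14.34% of reads. Membership depended on the shallowest library more than on any other: 372 ids were read in exactly 11 libraries, and 81 of these lacked a read only in uninduced library 3, against 14 to 50 for each of the others.

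**Figure D1:**
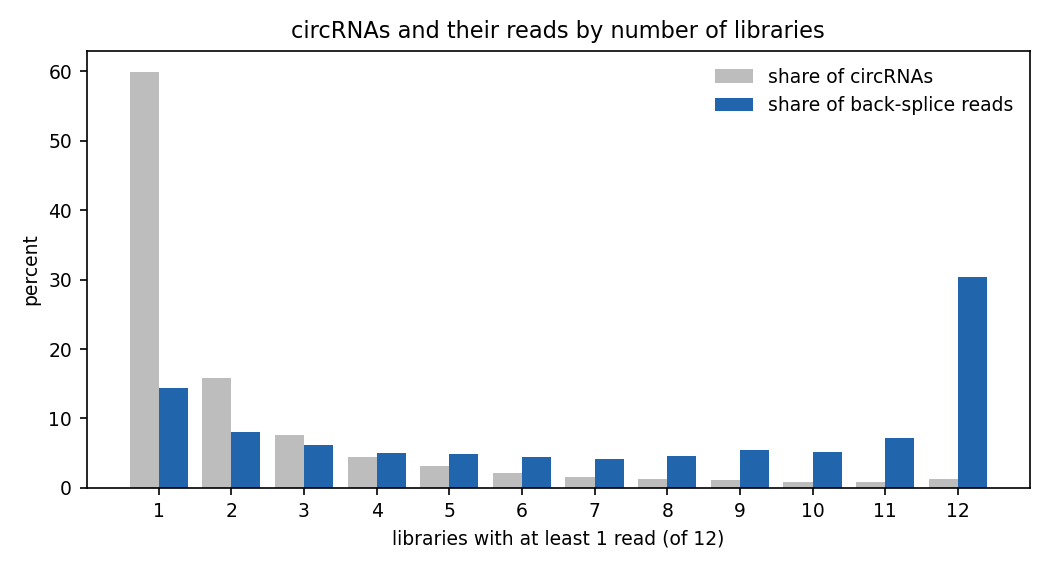
Share of circRNA ids (grey) and of back-splice reads (blue), in percent, by the number of libraries with at least 1 read. The last pair of bars is the core, with 1.215% of ids and 30.42% of reads.

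Within the back-splice reads of each group, the core took 28.97 ± 0.375% in induced and 30.52 ± 1.09% in uninduced cells of experiment 1 (SD, n = 3 each). It took 31.92 ± 0.365% in induced and 30.30 ± 0.112% in parental cells of experiment 2. The lowest single library was induced library 3 of experiment 1, at 28.6% with an exact 95% binomial (Clopper-Pearson) interval of 27.92% to 29.28%, and the highest was induced library 1 of experiment 2, at 32.34% (31.72% to 32.97%). Such intervals cover counting error only, since amplified reads are not independent molecules. The CPM of a circRNA is its back-splice reads over the effective (TMM) gene library size, here taken over all 12 libraries together. Scaled in this way, the summed core stood at 120 ± 11.6 CPM in induced and 116 ± 17.7 CPM in uninduced cells of experiment 1. The sums were 164 ± 14.7 CPM in induced and 165 ± 14.7 CPM in parental cells of experiment 2.

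Most members lay close to the limit of detection in at least some libraries. The median member had 87 reads over the 12 libraries, with a range of 21 to 2393, and 257 members had a library with a single read. Only 38 had 10 or more reads in every library. Members just inside the rule were circRNAs of KDM1B with 21 reads, BUB1 and EPHX2 with 22 each, and ADK and BRD1 with 23 each. Just outside it, with reads in 11 libraries, were circRNAs of AFF2 with 228 reads and none in parental library 2, and of DYRK1A with 207 reads and none in uninduced library 3. Both were low in the group where the read was missing, AFF2 with 2, 0 and 2 reads in parental cells and DYRK1A with 2, 2 and 0 in uninduced cells.

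Abundance was spread unevenly among the members. The 12 most abundant took 15.83% of core reads and the 50 most abundant 36.43%. Mean CPM over the 12 libraries ran between 0.0409 and 4.476, with a median of 0.1643.

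The circRNA at rank 1 came from CDYL, which encodes a chromodomain protein of repressive chromatin, and consisted of exon 4 alone (chr6:4891947-4892613, GRCh37, 667 nt). It had 142, 68 and 99 reads in induced and 132, 117 and 54 in uninduced cells of experiment 1, and 233, 221 and 235 in induced and 345, 383 and 364 in parental cells of experiment 2. All libraries of experiment 2 exceeded all of experiment 1. In group means this was 2.29 ± 0.584 CPM in induced and 2.41 ± 0.704 CPM in uninduced cells, and 5.69 ± 0.248 CPM in induced and 7.51 ± 0.692 CPM in parental cells. CDYL ranked first in both groups of experiment 2 and second in both groups of experiment 1.

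Rank 2 went to the ring of exons 2 to 5 of MAN1A2 (chr1:117944808-117963271, 553 nt), whose host encodes a Golgi mannosidase that trims N-glycans. It led both groups of experiment 1, with 183, 102 and 130 reads in induced and 137, 136 and 96 in uninduced cells. Induced cells of experiment 2 had 116, 111 and 137 reads and parental cells 58, 89 and 85. Parental cells were lowest in every library once scaled, at 1.58 ± 0.249 CPM, while the other 3 groups lay between 3.01 and 3.09 CPM.

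Exons 2 to 8 of DNAH14, an axonemal dynein heavy chain, gave rank 3 (chr1:225140372-225161855, 863 nt). Reads numbered 93, 77 and 78 in induced and 91, 93 and 77 in uninduced cells of experiment 1, and 145, 126 and 118 in induced and 91, 75 and 77 in parental cells of experiment 2. Its second ring, exons 2 to 10, ranked 9 and had 53, 46 and 35 reads in induced and 45, 43 and 46 in uninduced cells, then 92, 83 and 85 in induced and 52, 36 and 66 in parental cells. Both rings were highest in induced cells of experiment 2.

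A single exon of SPECC1, which encodes a cytoskeletal coiled-coil protein, stood at rank 4 (exon 4, chr17:20107646-20109225, 1580 nt). It had 46, 24 and 25 reads in induced and 46, 37 and 21 in uninduced cells of experiment 1, and 54, 72 and 55 in induced and 163, 204 and 214 in parental cells of experiment 2. Parental cells stood apart, at 3.97 ± 0.226 CPM, from the other 3 groups at 0.702 to 1.49 CPM.

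RNF138, a ubiquitin ligase gene, followed at rank 5 with exons 3 to 4 (chr18:29691717-29693823, 282 nt). Reads were 73, 57 and 43 in induced and 72, 49 and 38 in uninduced cells of experiment 1, and 64, 27 and 25 in induced and 149, 127 and 150 in parental cells of experiment 2. SFMBT2, a Polycomb group gene, had at rank 6 a ring of exons 5 to 7 (chr10:7318854-7327916, 434 nt), with 83, 61 and 84 reads in induced and 58, 79 and 47 in uninduced cells, then 52, 17 and 62 in induced and 113, 65 and 120 in parental cells. Within the experiment 2 triplets these rings were uneven, with 1 of 3 induced libraries far above the other two for RNF138 and 1 far below for SFMBT2.

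DEK, whose protein binds chromatin, was at rank 7 with exons 3 to 9 (chr6:18236683-18258636, 902 nt). It had 24, 20 and 26 reads in induced and 36, 37 and 27 in uninduced cells of experiment 1, and 122, 105 and 112 in induced and 87, 111 and 102 in parental cells of experiment 2. No library of experiment 1 reached any of experiment 2.

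The 3-exon ring of MAN1A2, exons 2 to 4, came at rank 8 with 69, 58 and 46 reads in induced and 41, 56 and 41 in uninduced cells, then 79, 74 and 64 in induced and 56, 59 and 63 in parental cells. At rank 10, exon 2 of the kinase gene HIPK3 (chr11:33307959-33309057, 1099 nt), among the most studied human circRNAs, had 79, 33 and 47 reads in induced and 62, 57 and 30 in uninduced cells, then 43, 51 and 41 in induced and 72, 66 and 80 in parental cells. HIPK3 was among the steadier of the abundant rings, with group means between 1.11 and 1.498 CPM.

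ATXN7, which encodes a subunit of the SAGA acetyltransferase complex, was at rank 11 with exons 3 to 4 (chr3:63898264-63898901, 405 nt). It had 31, 20 and 17 reads in induced and 18, 21 and 7 in uninduced cells of experiment 1, and 66, 75 and 45 in induced and 115, 113 and 138 in parental cells of experiment 2. At rank 12, exons 3 to 8 of ATP5C1, the gene of the gamma subunit of mitochondrial ATP synthase (chr10:7839010-7844817, 799 nt), had 77, 49 and 52 reads in induced and 74, 69 and 28 in uninduced cells, then 41, 39 and 62 in induced and 32, 57 and 67 in parental cells. ATP5C1 fell within 1.05 to 1.35 CPM in all 4 group means, whereas those of ATXN7 ran between 0.362 and 2.51 CPM.

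**Figure D2:**
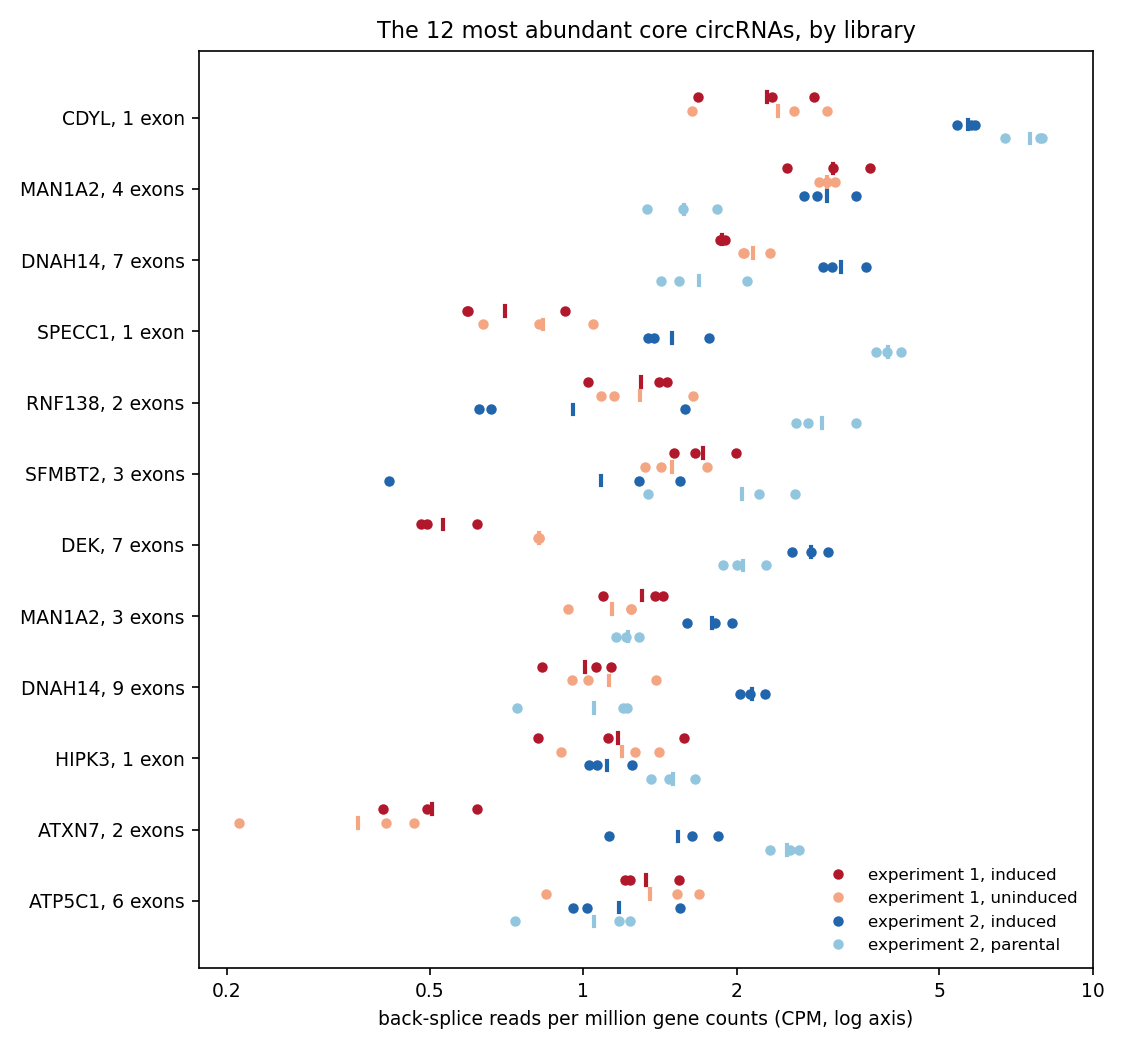
CPM (log axis) of the 12 most abundant core circRNAs in every library; points are libraries, coloured by group, and each vertical bar is the mean of 3. CDYL and DEK separate the experiments, SPECC1 and ATXN7 are highest in parental cells, and the groups of ATP5C1 overlap.

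Most core circRNAs were rings of internal exons with long introns on both sides, and 1 member held exon 1 of its transcript. All 535 were of the exonic type, whereas 317 intronic ids stood in both tables together and none of them in the core. The median member joined 3 exons, spliced to 448 nt and spanned 8264 nt of genome, against 4 exons, 535 nt and 10684 nt over the 43190 other exonic ids. The file rounded the exon sizes of 23 members beyond use, so spliced length rests on 512.

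Intron length differed widely. The shorter of the 2 flanking introns had a median of 8905 nt in the core, with quartiles of 3846 and 15848 nt, against 2902 nt over the other exonic ids. Both introns exceeded 5000 nt for 68.05% of members, against 32.15% of the other exonic ids. The upstream intron had a median of 14912 nt in the core against 5698 nt outside it, and the downstream intron 12978 nt against 4616 nt.

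Most of that gap was shared with other well-read circRNAs. The 1317 exonic ids outside the core with at least 21 reads, as many as the least read member, had a median shorter intron of 7104 nt and long introns on both sides in 60.59%. Their median spliced length was 439 nt and their median exon number 3. Among the 372 ids read in 11 libraries the shorter intron had a median of 7948 nt. These are descriptions of regions that share hosts and exons, and no test was made over them.

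Exon position and number also differed. A start at exon 2 of the annotated transcript was found for 275 members, which is 51.4%, against 41.8% of the other ids with at least 21 reads and 26.7% of all other exonic ids. Single-exon rings were 46 of 535, or 8.60%, against 6.53% and 4.51%. Rings of 10 or more exons were 16, or 2.99%, against 4.78% and 13.3%. Rings of 2 exons were the commonest form, with 141 members or 26.4%, against 27.6% and 20.01%, followed by 107 with 3 exons and 90 with 4.

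**Figure D3:**
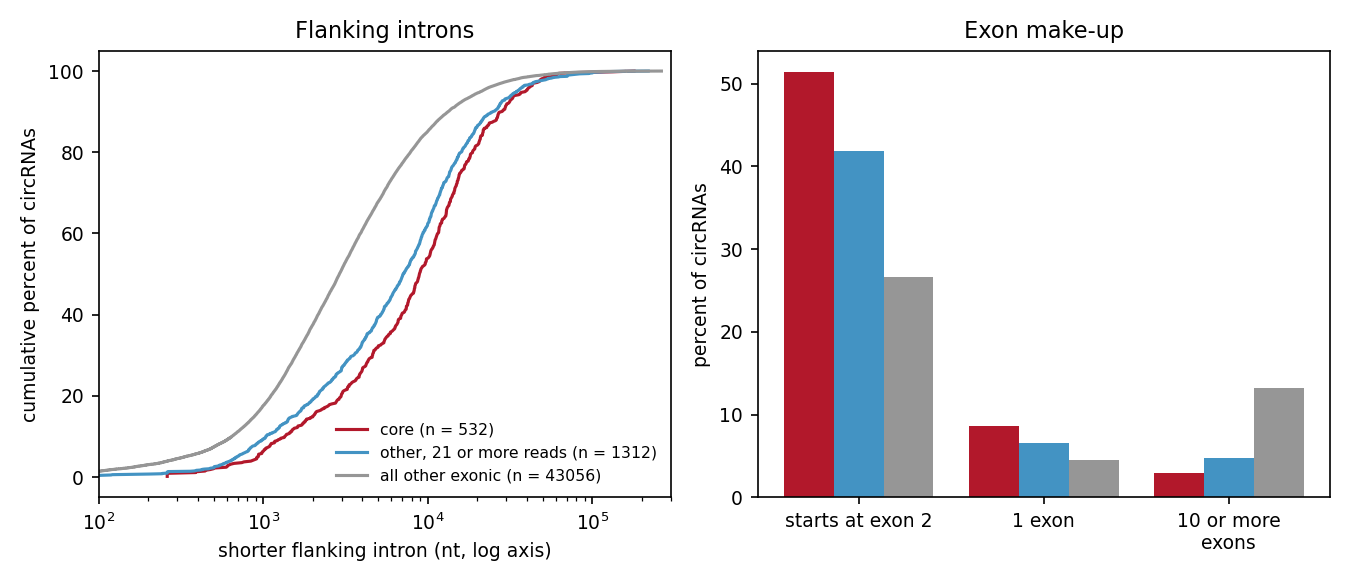
Left, cumulative percent of circRNAs by the length of the shorter flanking intron (nt, log axis); right, percent that start at exon 2, have 1 exon or have 10 or more exons. Core circRNAs (red) have the longest introns, with a median of 8905 nt, next to 7104 nt for other circRNAs with 21 or more reads (blue) and 2902 nt for all other exonic ids (grey).

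The extremes show how far members departed from that form. ATM, the kinase gene of the DNA damage response, gave the ring with most exons, 16, being exons 41 to 56 (chr11:108186550-108206688, 2262 nt). UBAP2 gave the shortest, 119 nt of exons 9 to 10, with 36 reads in all. ARHGAP5, which encodes a GTPase-activating protein, gave the longest, 3885 nt in a single exon (chr14:32559708-32563592), and was rank 14 with 648 reads.

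SDK1, a cell adhesion gene, had the longest introns by the shorter side, 317195 nt upstream and 179344 nt downstream of exons 2 to 4. The smallest span was the 215 nt of exon 4 of SRSF4, a splicing factor gene of the SR family.

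The 535 members came from 435 host genes. A single member was found for 365 hosts, and the other 70 hosts held 170 members, of which 137 shared a start or an end with another member. Members of 1 host are thus partly the same sequence and are not independent of each other. Chromosome 1 held most members, with 70 from 45 hosts, and 278 of the 535 lay on the plus strand.

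MAN1A2 had 6 members, 5 of them with the same start at exon 2. The 4-exon ring took 52.2 ± 4.09% of the host's core reads in induced and 53.8 ± 0.934% in uninduced cells of experiment 1, and 42.4 ± 2.67% in induced and 37.2 ± 6.77% in parental cells of experiment 2 (SD, n = 3). The 2-exon ring took 6.56 ± 0.709% in induced and 6.20 ± 2.14% in uninduced cells, then 10.3 ± 1.57% in induced and 16.9 ± 2.18% in parental cells. Induced and parental libraries of experiment 2 did not overlap for the 2-exon ring, at 8.824% to 11.96% against 14.35% to 18.32%.

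UBAP2, which encodes a ubiquitin-associated protein, had 5 members that changed order between experiments. A ring of exons 9 to 12 took 34.4 ± 5.09% of the host's core reads in induced and 44.6 ± 3.95% in uninduced cells of experiment 1, and 10.8 ± 6.30% in induced and 22.4 ± 5.62% in parental cells of experiment 2. A ring of exons 7 to 10 had 12.6 ± 1.23% in induced and 13.3 ± 4.85% in uninduced cells, then 43.3 ± 9.96% in induced and 23.3 ± 5.10% in parental cells. In experiment 2 its induced libraries, at 32.81% to 52.63%, lay above the parental ones, at 18.18% to 28.38%.

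DNAH14, described here after its values were seen, had 4 members that all began at exon 2. Its 6-exon ring took 15.1 ± 1.37% of the host's core reads in induced against 20.6 ± 1.15% in uninduced cells of experiment 1, without overlap. In experiment 2 it took 8.76 ± 0.0497% in induced and 12.8 ± 4.11% in parental cells, with overlap at 8.805% to 8.811%. No test was made of these shares.

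Within the inducible line, no core circRNA passed the adjusted test between induced and uninduced cells. Of the 527 members tested in experiment 1, 0 passed an adjusted p of 0.05 in edgeR's quasi-likelihood test, with 20 under an unadjusted p of 0.05, and DESeq2 called 0 with 3 under that unadjusted value. Over all 1701 circRNAs tested, the share called was 0.00%. The median log2 change of members, induced over uninduced, was 0.06, as it was over all circRNAs tested, and the smallest adjusted p of a member was 0.965. Leaving out 1 library moved the members' median to -0.04 (induced library 1), -0.05 (uninduced library 3) or 0.15 (uninduced library 2), so its sign rested on single libraries. The quartiles of the members were -0.26 and 0.36, and the 12 most abundant between -0.63 and 0.45. The median standard error of a member was 0.56 on the log2 scale. Member changes ran between -1.78 and 1.97 and none was called, so changes well above that standard error could also be missed at this depth. These are bulk samples, in which fewer cells of a type and less RNA per cell cannot be told apart.

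The 3 members with the smallest unadjusted p show what lay at the edge. A ring of exons 4 to 6 of EIF4G3, a translation initiation factor gene (chr1:21377359-21437876) had 13, 9 and 9 reads in induced and 2, 3 and 3 in uninduced cells, then 1, 2 and 5 in induced and 11, 14 and 8 in parental cells of experiment 2. Induced libraries were high in experiment 1 and low in experiment 2, without overlap in either. Its log2 differences were 1.78 ± 0.583 (SE, adjusted p = 0.965) in experiment 1 and -1.75 ± 0.787 (adjusted p = 0.307) in experiment 2 by edgeR.

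KIF20B, a kinesin gene of cell division, had a ring of exons 24 to 29 with 14, 10 and 14 reads in induced and 3, 8 and 3 in uninduced cells, then 7, 8 and 7 in induced and 18, 21 and 28 in parental cells. MYO10, an unconventional myosin gene, had a ring of exons 5 to 9 with 1, 3 and 2 reads in induced and 11, 4 and 5 in uninduced cells, then 10, 9 and 5 in induced and 3, 1 and 2 in parental cells. Both again had opposite signs in the 2 experiments, with log2 differences of 1.30 and -1.31 for KIF20B and -1.78 and 2.18 for MYO10. None of these 4 values passed the adjusted test, and the difference between experiments did not pass it for EIF4G3, KIF20B or MYO10 either (adjusted p = 0.102, 0.102 and 0.106 in edgeR).

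Set against the reads of their host genes, members gave the same picture. Of 510 members with a matched host, 0 were called to differ from the host in experiment 1, with 16 under an unadjusted p of 0.05, and limma-voom called 0 with 12. The share called over all 1640 tested was 0.00%. In the edgeR test the low circRNA counts and the high host counts shared a dispersion, so differences from the host could be missed. KIF20B, MYO10 and a 2-exon ring of RAB3IP, a Rab exchange factor gene, had the smallest p, at differences of 1.33, -1.74 and 0.96 on the log2 scale and an adjusted p of 0.927 in edgeR. Among the hosts themselves, 79 of 420 were called, 34 higher and 45 lower, against 20.9% of all genes tested, with 10.5% higher and 10.4% lower. Leaving out uninduced library 3 raised that count to 111, and leaving out induced library 1, induced library 3 or uninduced library 2 left 27, 22 and 38.

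In experiment 2, with the induced line set against parental cells, 19 of 532 members tested were called, 7 higher and 12 lower. Over all 2381 circRNAs tested the share called was 1.68%, with 0.714% higher and 0.966% lower. The members are among those tested and held 19 of the 40 calls. They were chosen by their reads, and better-read circRNAs pass a test more easily, so the 2 shares are not on a par. This holds for the other counts of called members below as well. The members' median log2 change was -0.01 against -0.19 over all tested, and their quartiles were -0.60 and 0.64. The median moved to 0.10, against -0.02 over all tested, without parental library 1, to 0.07 without induced library 2 and to -0.06 without parental library 2, so its sign was not fixed. An unadjusted p under 0.05 was found for 76 members. With sizes taken from the circRNA table itself the split was 12 higher and 12 lower.

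Of the members called lower, SNX25, a sorting nexin gene, fell most. Its ring of exons 2 to 5 (chr4:186168448-186188309, 662 nt) had 1, 2 and 3 reads in induced against 33, 19 and 25 in parental cells. In experiment 1 the line had 13, 11 and 12 reads induced and 14, 12 and 10 uninduced. The groups of experiment 2 were far apart while those of experiment 1 overlapped, and the log2 change was -3.36 ± 0.639 (adjusted p = 2.48e-05, edgeR).

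FBXW7, the gene of a substrate receptor of the SCF ubiquitin ligase, had a ring of exons 2 to 3 (chr4:153332455-153333681, 620 nt) with 16, 4 and 7 reads in induced against 55, 42 and 44 in parental cells. Its log2 change was -2.12 ± 0.390 (adjusted p = 1.05e-05, edgeR), and in experiment 1 it had 24, 18 and 17 reads in induced and 26, 24 and 12 in uninduced cells. Every induced library of experiment 2 was below every parental one.

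RPRD1A, whose protein binds the tail of RNA polymerase II, followed with a ring of exons 3 to 7 (chr18:33606863-33613800) that had 6, 7 and 10 reads in induced against 38, 22 and 43 in parental cells, a log2 change of -1.88 ± 0.446. FOXK2, a forkhead transcription factor gene, had exons 2 to 3 (chr17:80521230-80526077) with 15, 15 and 16 reads in induced against 68, 72 and 59 in parental cells, a change of -1.85 ± 0.321. FAT1, an atypical cadherin gene, had its exon 2 (chr4:187627717-187630999, 3283 nt) with 17, 23 and 9 reads in induced against 71, 54 and 85 in parental cells, a change of -1.82 ± 0.313. The groups did not overlap for any of these. Adjusted p was 0.00275, 1.77e-06 and 1.58e-06 in the order RPRD1A, FOXK2 and FAT1 by edgeR.

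The other 7 lower calls, most of them named after their values were seen, were rings of RNF138, USP25, SPECC1, SMARCA5, REV1, ARHGAP5 and SFMBT2. Their log2 changes ran between -1.61 for RNF138 and USP25 and -0.92 for SFMBT2. SMARCA5, an ISWI remodelling ATPase gene whose 2-exon ring (exons 15 to 16, chr4:144464662-144465125) is well studied, had 23, 12 and 27 reads in induced against 64, 55 and 77 in parental cells. Chromosome 4, with 30 of the 535 members, held 4 of the 12 lower calls, those of SNX25, FBXW7, FAT1 and SMARCA5. Over all circRNAs tested 0.966% were called lower, and no such share was taken for chromosome 4 alone. Chromosome 1, with 70 members, held 5 calls, all higher.

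The 7 higher calls came from 5 hosts. A 6-exon ring listed under RP11-453F18__B.1 on the X chromosome (chrX:130883334-130928494, 845 nt) rose most, with 38, 25 and 45 reads in induced against 2, 11 and 12 in parental cells and a log2 change of 2.39 ± 0.418 (adjusted p = 2.38e-06, edgeR). CCDC18, which encodes a coiled-coil protein, had a ring of exons 15 to 27 (chr1:93687166-93730458, 1923 nt) with 100, 61 and 86 reads in induced against 16, 37 and 34 in parental cells, a change of 1.79 ± 0.265 (adjusted p = 5.53e-09, edgeR). The first was level between the experiments except in parental cells, with 53, 40 and 47 reads in induced and 37, 54 and 26 in uninduced cells, while CCDC18 had only 15, 16 and 15 in induced and 20, 20 and 24 in uninduced cells.

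The 5-exon ring of MAN1A2, exons 2 to 6, had 51, 52 and 56 reads in induced against 31, 15 and 37 in parental cells, a log2 change of 1.204 ± 0.299. ATRNL1, a gene related to attractin, had exons 3 to 7 (chr10:116879949-116889297) with 88, 87 and 73 reads in induced against 48, 38 and 58 in parental cells, a change of 1.05 ± 0.242. The 9-exon and 7-exon rings of DNAH14 and the 4-exon ring of MAN1A2, with the reads given above, changed by 1.03 ± 0.237, 0.93 ± 0.199 and 0.93 ± 0.204. Adjusted p for these 5 lay between 0.000447 and 0.00538 in edgeR. The 3-exon ring of MAN1A2, from the same start, had a change of 0.55 ± 0.240 and was not called (adjusted p = 0.269), and its difference from the longer rings was not tested.

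Some calls were lost when 1 library was left out. Without induced library 1 of experiment 2, 10 members were called, and the rings of DNAH14, ATRNL1, the 5-exon MAN1A2 ring, REV1 and USP25 moved to an adjusted p of 0.0560, RPRD1A to 0.0600, ARHGAP5 to 0.0608 and SFMBT2 to 0.129 in edgeR. The log2 changes stayed close to or above their size, for example -1.60 for REV1, -1.85 for USP25, 1.24 for the 5-exon MAN1A2 ring and -1.05 for SFMBT2. REV1 and USP25 were lost in 5 of the 6 fits that left out a library, with adjusted p up to 0.163 and 0.155. SFMBT2 was lost in 4 of 6, with a log2 change of -0.53 without induced library 2, and also in DESeq2 (adjusted p = 0.449). Without parental library 1 the rings of RPRD1A (adjusted p = 0.0811 in edgeR) and ARHGAP5 (0.110) were lost too, and without parental library 2 the 5-exon MAN1A2 ring (0.172).

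Every called member with a tested host moved the way its host moved. Of the 19, 18 had a tested host, 18 of those hosts were called in the same direction, and 18 of the circRNA changes were larger in size than the host change. A called circRNA needs a large change to pass at this depth, so the sizes are not independent of the choice. Back-splice reads may also be among the reads counted for the host, which is not stated. Over all hosts of core circRNAs 316 of 420 were called, 179 higher and 137 lower, against 65.0% of all genes tested, with 32.1% higher and 32.9% lower. Host genes changed by -0.94 for SNX25, -0.66 for FBXW7, -0.17 for FOXK2 and -0.93 for FAT1 on the log2 scale. They changed by -1.33 for RNF138 and -1.35 for USP25, close to the -1.61 of both rings, and by 0.21 for CCDC18, 0.28 for MAN1A2 and 0.81 for DNAH14.

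The test against the host called 0 of 515 members in experiment 2, with 20 under an unadjusted p of 0.05, and limma-voom also called 0 with 20. Over all 2290 circRNAs with a host the share called was 0.0873%. As in experiment 1, differences could be missed, so the lack of calls does not show that members followed their hosts. The rings of CCDC18 and FOXK2, for example, changed by 1.79 and -1.85 and their hosts by 0.21 and -0.17, and neither was called. RNF138 and USP25, as given above, were closer to their hosts. The smallest p values belonged to POMT1, a protein O-mannosyltransferase gene, SNX25 and CBWD2, all with an adjusted p of 0.387 in edgeR. The POMT1 ring of exons 3 to 4 had 13, 13 and 11 reads in induced against 24, 26 and 24 in parental cells, a log2 change of -0.73, while its host gene changed by 1.202, giving a difference of -1.93. SNX25 differed from its host by -2.39 and CBWD2 by 2.39, and CBWD2 belongs to a family of near-identical copies, so its counts are uncertain.

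**Figure D4:**
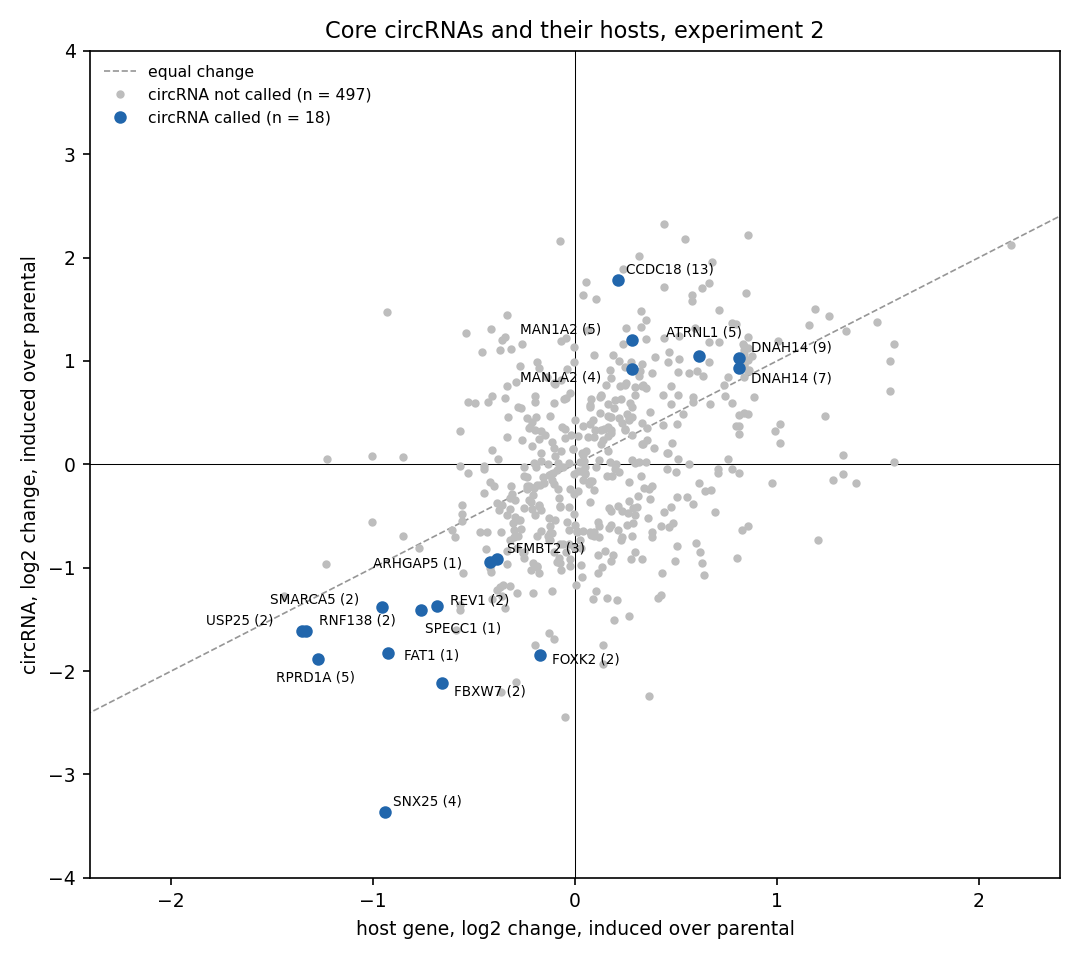
Log2 change of each core circRNA (vertical) against that of its host gene (horizontal), induced over parental, experiment 2. The 18 called circRNAs with a tested host (blue, exon number in brackets) lie in the lower left and upper right quadrants, farther from 0 than their hosts, with SNX25 at -3.36 against -0.94 for its host.

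Median changes differed among chromosomes. On chromosome 1 the 70 members had a median log2 change of 0.47 in experiment 2 and their hosts 0.23, and on chromosome 9 the 31 members had 0.60 and their hosts 0.23. Chromosome 4 had -0.58 over 30 members and -0.20 over hosts, and chromosome 2 had -0.39 over 37 members and -0.07 over hosts. In experiment 1 the medians of the same chromosomes lay between -0.12 and 0.13. Over all chromosomes they ran between -0.39 (X, 9 members) and 0.35 (chromosome 17, 16 members) in experiment 1. In experiment 2 they ran between -0.91 (chromosome 21, 6 members) and 0.60 (chromosome 9). Members and hosts did not always have the same sign, since on chromosome 5 the 37 members had -0.18 while their hosts had 0.18. By spliced length, the 106 members of up to 300 nt had a median change of -0.32 in experiment 2, the 187 of over 300 and up to 500 nt had -0.06, the 115 of over 500 and up to 800 nt had 0.32 and the 104 longer ones had 0.09, so the medians did not rise steadily with length.

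The difference between the effects of the 2 experiments, taken as an interaction over all 12 libraries, was called for 4 members, 2 higher and 2 lower, against 0.175% of the 3992 circRNAs tested, with 0.125% higher and 0.0501% lower. It was 2.39 ± 0.452 for CCDC18 (adjusted p = 0.000118) and 2.23 ± 0.477 for RP11-453F18__B.1 (0.00242), and -1.62 ± 0.352 for RNF138 (0.00291) and -3.24 ± 0.765 for SNX25 (0.0130), all in edgeR. The same 4 were called with sizes from the circRNA table. The call of SNX25 was lost without induced library 1 (-2.96, adjusted p = 0.0622) or parental library 1 of experiment 2 (-2.95, 0.0884). Those of RNF138 without induced library 2 (-1.44, 0.0570) or 3 (-1.42, 0.0661) and of RP11-453F18__B.1 without parental library 1 (1.79, 0.0884) were lost too, and 2 members were called in all without parental library 1.

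The induced groups of both experiments were compared in a fit over all 12 libraries, so its count of calls is not on a par with those of the fits over 6 libraries. Induced cells of experiment 2 against induced cells of experiment 1, the same labelled line and treatment, gave 78 called members of 535, 65 higher and 13 lower, against 3.93% of the 3992 circRNAs tested, with 3.13% higher and 0.802% lower. With sizes from the circRNA table the split was 37 higher and 35 lower, and the median change over all circRNAs moved to -0.16 on the log2 scale against 0.17 as first scaled. Under both scalings 50 members were called, 37 higher and 13 lower, and no called member changed direction. Without induced library 1 of experiment 1 there were 51 calls.

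For most called members the control groups lay on the same side as the induced groups. The calls were chosen on the induced groups, so the order of those means was fixed by the choice. No such count was taken over the other members. Of the 65 members called higher, 63 had both group means of experiment 2 above both of experiment 1, and 11 of the 13 called lower had both below. Experiment, library preparation and sequencing run cannot be told apart here. The mitochondrial ribosomal RNA MT-RNR2 took 23.2 ± 1.06% of gene counts in induced and 23.1 ± 1.21% in uninduced libraries of experiment 1, and 0.0519 ± 0.0106% in induced and 0.0300 ± 0.00127% in parental libraries of experiment 2. Its part in the circRNA differences was not tested.

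The examples that follow were chosen in part after their values were seen, and each was called under both scalings. SKIL, the gene of a repressor of TGF-beta signalling, had its exon 2 (chr3:170077487-170079217, 1731 nt) with 55, 44 and 41 reads in induced cells of experiment 2 and 6, 3 and 6 in induced cells of experiment 1. Its parental libraries had 50, 50 and 69 reads and its uninduced ones 3, 10 and 2, and the log2 difference was 3.32 ± 0.403 (adjusted p = 1.84e-13, edgeR). The 16-exon ATM ring had 25, 23 and 29 reads in induced cells of experiment 2 and 2, 3 and 5 in induced cells of experiment 1, a difference of 3.02 ± 0.487 (1.55e-07). For both, every library of experiment 2 was above every library of experiment 1.

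The gene of the miRNA-processing nuclease DROSHA gave a ring of exons 27 to 29 with 56, 76 and 46 reads in induced cells of experiment 2 and 18, 6 and 8 in induced cells of experiment 1. In the other direction, a 3-exon ring of ASXL1 (chr20:30954187-30956926, 195 nt), whose protein works with Polycomb deubiquitinases, had 23, 14 and 21 reads in induced cells of experiment 2 against 91, 57 and 66 in induced cells of experiment 1, a log2 difference of -1.74 ± 0.291 (adjusted p = 6.04e-07, edgeR). CASP8AP2, a gene of histone expression and apoptosis, had 3, 2 and 1 reads against 18, 11 and 11, a difference of -2.53 ± 0.705. The ASXL1 ring overlapped between the experiments in its control libraries, with 54, 33 and 46 reads in parental and 74, 95 and 36 in uninduced cells. Rings of GPR89A, GPR89C and TIMM23B were also called higher, but their hosts have near-identical copies and the counts of each are uncertain.

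**Figure D5:**
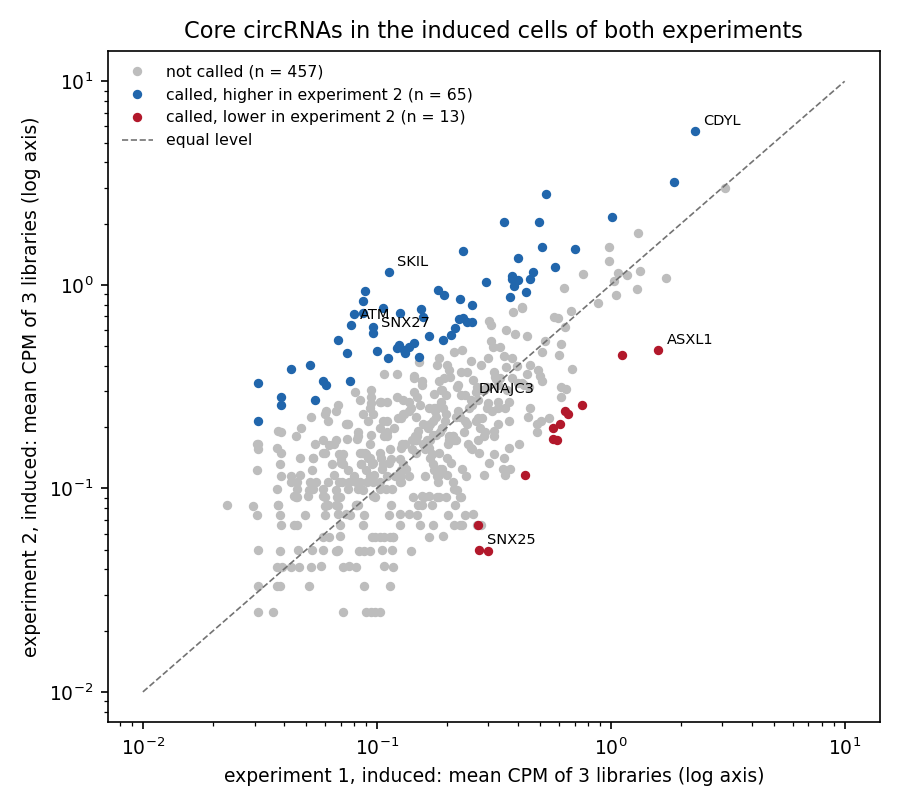
Mean CPM of each core circRNA (3 libraries, log axes) in induced cells of experiment 2 (vertical) and of experiment 1 (horizontal). The 65 members called higher (blue) and 13 called lower (red) in experiment 2 lie off the line of equal level, while DNAJC3 lies on it.

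Stability across the 4 groups was limited, and the rule already removed any circRNA that was missing from a library. All 4 group means lay within 2-fold of each other for 143 members, or 26.73%, and 120 members ranged over more than 4-fold. The range between the highest and lowest group mean had a median of 1.37 on the log2 scale, with quartiles of 0.963 and 1.885. Members were highest in parental cells in 190 cases, in induced cells of experiment 2 in 176, in induced cells of experiment 1 in 94 and in uninduced cells in 75. These means used sizes from the gene table. With sizes from the circRNA table, the members' median log2 difference, induced cells of experiment 2 over experiment 1, was -0.10 instead of 0.27. Ranges and highest groups were not taken that way, so levels compared between experiments depend on the scaling. Counting error also widens a range of 4 means. The ratio of variance between replicates to that expected from counting had a median of 1.40, with quartiles of 0.912 and 2.04. Among the 50 most abundant its median was 2.12. At low counts this ratio says little about spread beyond counting.

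Pairs of groups ordered these similarities. Between induced and uninduced cells of experiment 1, log2 group means had a Pearson correlation of 0.901 over the 535 members, 92.71% of members were within 2-fold, and 40 of the 50 most abundant were shared. Between induced and parental cells of experiment 2 the values were 0.773, 75.1% and 34. Between induced cells of experiment 2 and of experiment 1 they were 0.607, 60.75% and 23. These points share libraries and depth, so they are given as a description without a test.

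Among the 185 members with at least 120 reads, DNAJC3, the gene of an endoplasmic reticulum co-chaperone, varied least. Its ring of exons 5 to 9 (chr13:96409898-96416207, 682 nt) had 17, 12 and 5 reads in induced and 14, 12 and 7 in uninduced cells, then 13, 6 and 14 in induced and 10, 14 and 13 in parental cells. Group means were 0.252, 0.265, 0.273 and 0.253 CPM in that order, a range of 0.12 on the log2 scale, and all groups overlapped. TNFRSF21, a death receptor gene, and ZNF236, a zinc finger gene, came next with 2-exon rings from exon 2 and ranges of 0.23 and 0.26.

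At the other end stood SNX27, ATM and SNX25, with ranges of 3.76, 3.48 and 3.44 on the log2 scale. The ring of exons 2 to 7 of SNX27, a sorting nexin gene of endosomal recycling, had 6, 2 and 5 reads in induced and 1, 2 and 2 in uninduced cells, then 16, 30 and 24 in induced and 29, 16 and 32 in parental cells. SNX27 and ATM split by experiment, while SNX25 was lowest in induced cells and highest in parental cells of experiment 2.

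Lists of genes, chosen with earlier results of these data known, were set beside the core. The share of all genes that host a member was not taken, so the counts do not show which functions mark the core. Of 35 hosts of well-studied circRNAs, 24 had members, 36 in all with 13162 reads. In experiment 2, 4 of the 36 were called higher, rings of MAN1A2 and DNAH14, and 3 lower, those of FBXW7, FAT1 and SMARCA5, beside 1.68% of all circRNAs called. The 2-exon rings of ZKSCAN1, with 48, 18 and 26 reads in induced and 27, 30 and 13 in uninduced cells, then 43, 24 and 23 in induced and 19, 32 and 37 in parental cells, and of CAMSAP1 were not called in either experiment. The median log2 change over the list was 0.05 in experiment 1 and -0.03 in experiment 2, beside 0.06 and -0.19 over all circRNAs tested.

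Chromatin regulators hosted 20 members from 17 of 54 listed genes, among them CDYL, ASXL1, EZH2 and SMARCA5, and 1 was called, lower, in experiment 2. Ubiquitin ligases and deubiquitinases hosted 11 from 9 of 48 genes, with FBXW7 and USP25 called lower, and RNF138 was not on that list. Protein kinases hosted 24 from 15 of 44 genes, with none called in either experiment at an adjusted p of 0.05 in edgeR. Centrosome, microtubule and motor genes hosted 16 from 9 of 46 genes, with both calls, higher, from DNAH14. Over all circRNAs tested, 0.714% were called higher and 0.966% lower. The median changes of these lists in experiment 2 were -0.05, -0.56, -0.02 and 0.33 on the log2 scale, in the order given.

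Genes of proteins that act on back-splicing were measured beside the rings. Of 29 such genes, 9 were called higher and 4 lower in experiment 1, and 8 higher and 16 lower in experiment 2, beside 20.9% and 65.0% of all genes called. In experiment 1, CDK11B, SRSF3 and SRSF6 rose by 0.57, 0.51 and 0.43 on the log2 scale, and NOVA2 fell by 1.08, ESRP1 by 0.80 and MBNL2 by 0.51. QKI, known to promote back-splicing by binding flanking introns, changed by -0.30 ± 0.0666 (SE, adjusted p = 0.0148, edgeR) in experiment 1 and by 0.40 ± 0.0467 (1.77e-07) in experiment 2. NOVA2 and RBFOX2 fell by 1.88 and 1.85 in experiment 2, while RBM20, MBNL1 and HNRNPL rose by 0.74, 0.54 and 0.45. The part of these genes in the circRNA levels was not tested.

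Of 24 genes of circRNA turnover and export that were tested, 9 were higher and 1 lower in experiment 1, and 8 higher and 12 lower in experiment 2. Over all genes tested, 10.5% were higher and 10.4% lower in experiment 1, and 32.1% higher and 32.9% lower in experiment 2. NXF1, the main mRNA export receptor, rose by 0.60 in experiment 1, as did YTHDF2, which binds RNA methylated at adenosine, by 0.45. In experiment 2, RPP25, a protein of RNase P and RNase MRP, fell by 3.29, the exosome nuclease gene DIS3 by 1.49 and the stress granule gene G3BP2 by 1.02. POP4 and DROSHA rose by 1.21 and 0.60.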

How the data were processed

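Total RNA of 12 HEK293 libraries was sequenced from both ends after a TruSeq RNA preparation, per the labels. The authors deposited raw counts of genes and of back-splice reads per circRNA for each experiment, whole numbers that are not normalized. STAR 2.5.2b and GRCh37 (hg19) stand in the submitters' processing notes without a stated role, the circRNA caller is not given in the sources used here, and printed starts count from 1.

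Within an experiment, a circRNA entered the test if its 6 libraries held at least 10 reads and 3 of them a read. The test was edgeR's quasi-likelihood F-test (version 4.0.16, R 4.3.3), two-sided, with TMM effective sizes of the gene table and Benjamini-Hochberg adjustment over all circRNAs tested. A call is an adjusted p under 0.05. The interaction and the contrast of induced groups used 3992 circRNAs of both tables with at least 10 reads over 12 libraries. Genes passed filterByExpr (minimum count 10, total 15). Tests against the host took library as a block. The host count is that deposited for its gene, and whether it includes back-splice reads is not stated. Of 435 hosts, 420 matched a gene row. DESeq2 1.42.0, limma 3.58.1 and other settings were alternatives.

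Named circRNAs followed a rule: the 12 most abundant, up to 5 largest calls each way per test or else the 3 smallest p, the hosts with most members, and the extremes of range and structure. The members, lists and rule were chosen with earlier results of these data known. No column of per-sample values was left out. Some named results are not reported here.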

Additional observations from a re-analysis of the deposited data

Results flagged for a closer look

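For 4 core circRNAs the effect of the induced line on its control differed between the experiments by a test of that difference in edgeR. It was -3.24 on the log2 scale for the 4-exon ring of SNX25 and -1.62 for the 2-exon ring of RNF138, and 2.23 for the 6-exon ring of RP11-453F18__B.1 and 2.39 for the 13-exon ring of CCDC18. The controls of the experiments differ, uninduced cells of the same line in experiment 1 and parental cells in experiment 2, and this difference cannot be told apart from one of effect.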

How the results depend on the processing

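Membership was 278 with at least 2 reads in each library and 907 with a read in at least 11, and 549 to 616 when 1 library at a time was left out. Calls of experiment 1 and both tests against the host stayed at 0 in every alternative run. In experiment 2, 19 calls became 10 without a filter on low counts, where 26796 circRNAs entered the adjustment, 19 with the replicate block, 23 in DESeq2, and 10 to 21 when each library was left out. Host calls of experiment 1 were 34 with the replicate block and 22 to 111 over left-out libraries, and those of experiment 2 were 294 to 306 over left-out libraries. The contrast of induced groups gave 51 to 82 calls and the interaction 2 to 5 over left-out libraries. The cause was not tested. Same-numbered libraries did not deviate together (correlations between -0.218 and 0.248, against -0.354 to 0.366 for other pairs), so replicate numbers were not taken as pairs. Uninduced library 3 of experiment 1 stood farthest from its replicates in gene counts. Its chi-square per gene was 41.1 against library 1 and 35.95 against library 2, and that between libraries 1 and 2 was 6.736. Alternatives were run by member only for those called within experiment 2 or in the interaction, those with the smallest p, and ATM, SNX25 and SNX27 in the contrast of induced groups, and none of these reversed direction in them. Depth limits the rest: 257 members had a library with 1 read.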
